A study of Homo sapiens with 15 samples.

Results

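A549 cells that had received interleukin-4 (IL4) together with a non-targeting control siRNA were compared with untreated A549 cells, 3 libraries against 3, out of 15 libraries in the series. A549 is a cell line from a human lung adenocarcinoma, and its labels liken it to the alveolar type II cell, the surfactant-making cell of the air sacs. The treated cells had 10 ng/ml IL4 and the control siRNA, a pooled negative control that matches no intended transcript, and the untreated cells had neither. The labels give 48 h of treatment before RNA extraction for all groups. Libraries of cells with IL4 alone at the same dose and time were not used in the reported fit and appear only where they are named. The comparison gives a reading of the IL4 response that is free of the IL4-alone libraries, in the group that also serves as the control of the ALOX15 knockdown. Its 2 groups differ by the siRNA as well as by IL4, so that the actions of IL4, of the siRNA and of its delivery cannot be told apart within it. The dose of the control siRNA, and whether untreated or IL4-alone cells went through a mock transfection, is not stated in the labels. Nothing in the labels says that the replicates were separate cultures, so the p-values rest on spread between libraries, which may be technical. That spread was estimated over 12 libraries, with the groups given IL4 and Compound A or ALOX15 siRNA beside those compared.

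IL4 drives allergic, type 2 inflammation. It binds IL4R, which pairs with IL2RG on blood cells or with IL13RA1 on epithelia, and Janus kinases on the receptor then phosphorylate STAT6. Paired STAT6 enters the nucleus, binds DNA palindromes of TTC and GAA, and switches on genes such as the eotaxins, chemokines that draw eosinophils into the airway. CISH and the SOCS proteins are made in response and damp the receptor. A transfected siRNA can in principle add a response of its own, since double-stranded RNA is read by sensors such as IFIH1, DDX58 and EIF2AK2, which can raise interferon genes.

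Total estimated counts were 11031246, 9083233 and 6694576 for the untreated libraries (replicates 1, 2 and 3) and 6916904, 6407936 and 7028749 for those with IL4 and control siRNA. Levels are given per library as counts per 1e+06 counts of that library (CPM), which are not scaled by gene length and are compared only within a gene. A gene was said to rise or fall where edgeR's quasi-likelihood test gave a Benjamini-Hochberg adjusted p below 0.05 over 12676 genes tested, and log2 changes carry their standard error (SE). Untreated replicate 1 stood apart from its group. Its counts gave a chi-square per degree of freedom of 5.42 and 5.41 against replicates 2 and 3, which gave 1.61 against each other, while the pairs of the treated group gave 2.53 to 3.31. No pair agreed within sampling noise. Without untreated replicate 1 the comparison called 1637 genes higher and 1786 lower, against 1629 and 1713 with it. A fit of the 6 compared libraries alone called 1471 higher and 1243 lower. Each sample is bulk RNA, so fewer cells of a kind and less RNA per cell cannot be told apart. The strand setting of the counting was not given, so reads of genes that share exon sequence with a neighbour on the other strand cannot be separated. In the GENCODE v29 models this touches JAK1, STAT6, KRT8 and KRT18 (with each other), IRF1, DICER1, EIF2AK2, SOCS2, TAGLN, PRIM1, CCNA2, STARD4, MVK, NDUFV1 and SLC51B among the genes named here.

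With IL4 and control siRNA, 3342 of 12676 genes (26.4%) changed: 1629 rose (12.9%) and 1713 fell (13.5%). Counts in the gene lists below are to be read beside these shares. Most changes were small, with a median log2 change of 0.44 among the rises, -0.35 among the falls and -0.02 over all genes tested. Changes of at least 2-fold were more often rises, with 258 genes higher (2.04%) and 98 lower (0.773%). Of the 258, 8 had only 1 to 3 counts in all untreated libraries together. Where such a gene is named, its summed counts and their ratio follow, with an exact 95% interval for counting error alone. Each such ratio and its interval are scaled by the summed totals of the libraries of each group, so they differ from the plain ratio of the counts.

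**Figure D1:**
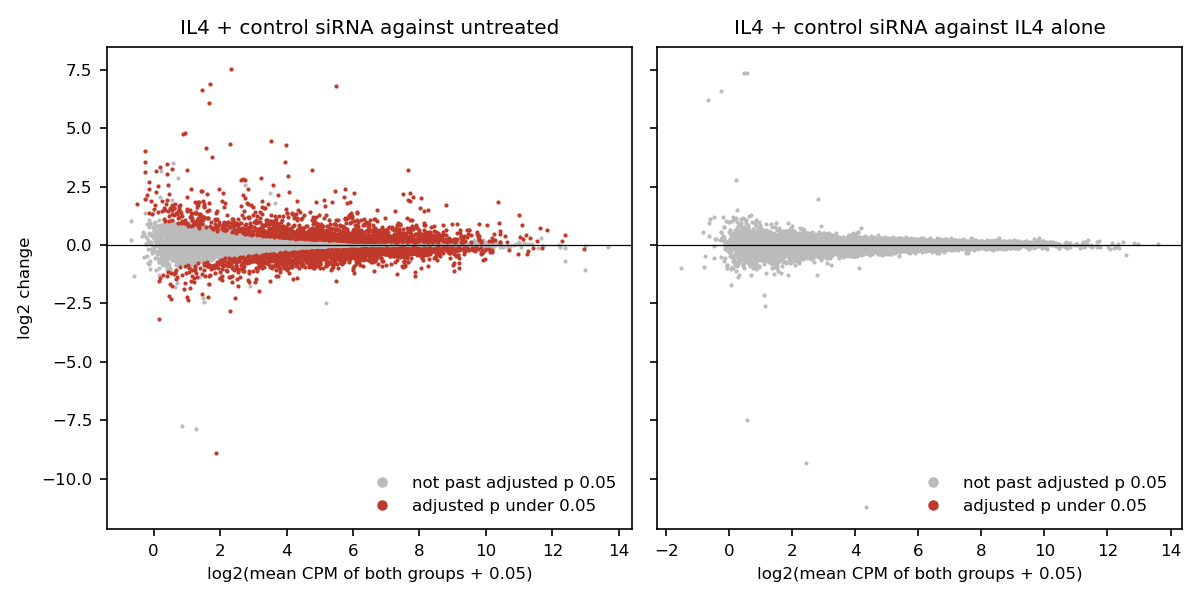
Log2 change of each gene (vertical axis) against its mean level (horizontal axis, log2 of mean CPM + 0.05) for IL4 with control siRNA against untreated (left) and against IL4 alone (right). Red points are genes with an adjusted p below 0.05: 3342 of 12676 on the left and 0 of 12795 on the right.

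The largest rises included genes of the airway type 2 response. CCL26 and CISH, the markers chosen for this comparison, are described first. CCL26 (eotaxin-3, an eosinophil chemokine, chr7:75769533-75789896 on GRCh38) was at 0.635, 0.55 and 1.34 CPM in the untreated libraries and at 91.9, 96.0 and 81.0 CPM with IL4 and control siRNA. All 3 treated libraries lay far above all untreated ones, a rise of 112-fold (log2 change 6.81, SE 0.15, adjusted p = 3.52e-28). With IL4 alone CCL26 stood at 124, 91.1 and 84.0 CPM, and the difference between the treated groups was -0.14 on the log2 scale with a 95% interval of -0.35 to 0.08. CISH (a feedback inhibitor of cytokine receptors, chr3:50606490-50611831) was at 1.54, 0.771 and 2.54 CPM untreated and at 26.9, 35.1 and 28.6 CPM with IL4 and control siRNA. The groups did not overlap, and the rise was 19.5-fold (log2 change 4.29, SE 0.20, adjusted p = 8.75e-17). IL4 alone gave 53.7, 35.8 and 30.3 CPM, which put CISH 0.39 lower on the log2 scale in the siRNA group (95% interval -0.76 to -0.01), a difference that did not pass adjustment over all genes.

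The promoter of CISH shows how densely STAT palindromes can lie next to a start site, and those of IRF1 and ITLN1, also among the rises, hold a single one each. The sequences below are from RefSeq on GRCh38.p14, minus strand, and hold no base of the gene's own GENCODE v29 model. Capitals mark matches to TTCNNNGAA, the spacing that STAT5 is known to bind, or to the STAT6 site, in which 4 unspecified bases in place of 3 part TTC from GAA. Both motifs are their own reverse complement, so one scan reads both strands.
CISH, chr3:50611832-50612024: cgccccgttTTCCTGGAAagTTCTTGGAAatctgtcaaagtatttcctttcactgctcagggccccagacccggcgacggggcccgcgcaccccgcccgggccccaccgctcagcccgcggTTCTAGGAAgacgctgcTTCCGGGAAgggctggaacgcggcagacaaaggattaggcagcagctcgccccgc
IRF1, chr5:132490799-132491023: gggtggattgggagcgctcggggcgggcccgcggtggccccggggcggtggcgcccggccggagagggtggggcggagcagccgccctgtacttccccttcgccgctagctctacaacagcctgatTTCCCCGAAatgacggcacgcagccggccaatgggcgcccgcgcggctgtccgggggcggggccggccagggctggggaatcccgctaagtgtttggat
ITLN1, chr1:160885181-160885430: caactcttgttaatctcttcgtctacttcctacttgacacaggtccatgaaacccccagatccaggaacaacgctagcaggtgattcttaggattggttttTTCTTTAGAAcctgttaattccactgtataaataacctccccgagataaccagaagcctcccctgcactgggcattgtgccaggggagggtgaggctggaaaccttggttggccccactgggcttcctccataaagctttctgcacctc

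The CISH matches were TTCCTGGAA, TTCTTGGAA, TTCTAGGAA and TTCCGGGAA, starting 241, 230, 129 and 112 bases before the RefSeq start. IRF1 held TTCCCCGAA at 124 bases and ITLN1 held TTCTTTAGAA at 149 bases before the start. The RefSeq table had windows, running from 250 bases before to 50 after a start, for 107 of the 143 genes named by rule. Most of these genes held neither motif, among them CCL26, DUOX2, KIRREL3, SOCS1 and SOCS3, while PRIM1, which fell, held TTCNNNGAA. The windows of CISH, IRF1 and ITLN1 were picked for display outside that rule, and each holds a match. Over all 35116 windows of the table, 7.66% held TTCNNNGAA and 6.44% held the STAT6 site. Among windows of the genes tested these shares were 6.3% and 4.82%. For the genes that rose at least 2-fold, 176 of 258 matched, and 10.2% and 7.17% of their 265 windows held the motifs. Of the genes that fell at least 2-fold, 70 of 98 matched, with 5.56% and 2.22% of 90 windows. These shares describe letters in a window and not binding.

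ALOX15 (arachidonate 15-lipoxygenase, chr17:4630902-4642294), the target of the knockdown elsewhere in the series, was at 0, 0.11 and 0.299 CPM untreated and at 3.90, 3.59 and 3.27 CPM with IL4 and control siRNA. The 3 untreated libraries held 3 counts in all against 73, a ratio of 32.1 (10.5 to 159). With IL4 alone ALOX15 was at 6.19, 4.75 and 5.05 CPM, above each library of the siRNA group, a difference of -0.55 on the log2 scale (95% interval -1.06 to -0.05) that did not pass adjustment. DUOX2 (an oxidase that makes hydrogen peroxide at the airway surface) rose from 1 count to 202, with levels of 10.1, 11.4 and 8.39 CPM, a ratio of 266 (47.2 to 10600). In 4 of the 15 libraries its counts were not whole and it shares exon sequence with DUOXA2, so part of its value may belong to that gene. CCL24 (eotaxin-2) rose from 2 counts to 30, a ratio of 19.8 (5.01 to 171), and ITLN1 (intelectin-1, a lectin of goblet cells) from 1 to 109, a ratio of 144 (25.2 to 5720). SLC26A4-AS1, annotated antisense to the anion exchanger gene SLC26A4, went from 1 count to 129 (ratio 170, 30 to 6760), and without strand information its reads cannot be separated from those of SLC26A4.

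Of 30 airway epithelial genes known to respond to IL4 or IL13, 15 could be tested, and 9 rose while 2 fell, beside 12.9% and 13.5% of all genes. Their median log2 change was 1.73 against -0.02 over all genes tested. ALOX15, CCL24 and ITLN1, with 3, 2 and 1 untreated counts, could be tested only through groups where they were higher. The same held for CCL26, and for ANO1 and RUNX2, at up to 0.635 and 0.44 CPM untreated. The filter thus favours rises, and the list holds the marker CCL26, so these values are no test of an IL4 response. Beyond the eotaxins and ALOX15, the members described here were chosen after their values were seen. CST1 (cystatin SN, a protease inhibitor of inflamed airways) went from 41.3, 36.4 and 39.6 CPM to 370.5, 390 and 340 CPM, a log2 change of 3.23 (SE 0.06). Its counts were not whole in 14 libraries, as happens where reads are shared with near copies of the gene. ANO1, a chloride channel, rose by 3.76 (SE 0.34), RUNX2, a transcription factor, by 2.68 (SE 0.54), TGM2, a crosslinking enzyme, by 1.73 (SE 0.06) and GATA3 by 0.78 (SE 0.20) on the log2 scale. The falls were in SPDEF and FOXA3, transcription factors of secretory cells. SPDEF went from 44.7, 30.4 and 34.9 CPM to 21.7, 21.5 and 18.5 CPM (log2 change -0.84, SE 0.13), and FOXA3 from 11.3, 8.15 and 10.0 CPM to 3.76, 4.68 and 5.26 CPM (log2 change -1.10, SE 0.20). Neither overlapped between the groups. CLCA1 and CCL11, classic airway targets of IL13, were at 0 in all 9 libraries of the untreated, siRNA and IL4-alone groups, and POSTN at or next to 0.

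Other leading rises came from outside that list. KIRREL3, an adhesion molecule, was at 1.27, 0.991 and 0.598 CPM untreated and at 19.8, 27.2 and 19.8 CPM with IL4 and control siRNA (log2 change 4.45, SE 0.22). SLC7A8, an amino acid transporter, went from 0.181, 0.33 and 0.448 CPM to 6.07, 6.24 and 4.41 CPM (log2 change 4.15, SE 0.37). In both genes the lowest treated library was above the highest untreated one. FAM26E, for which the table gives this older symbol, rose from 2 counts to 124 (ratio 81.7, 22.1 to 682).

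**Figure D2:**
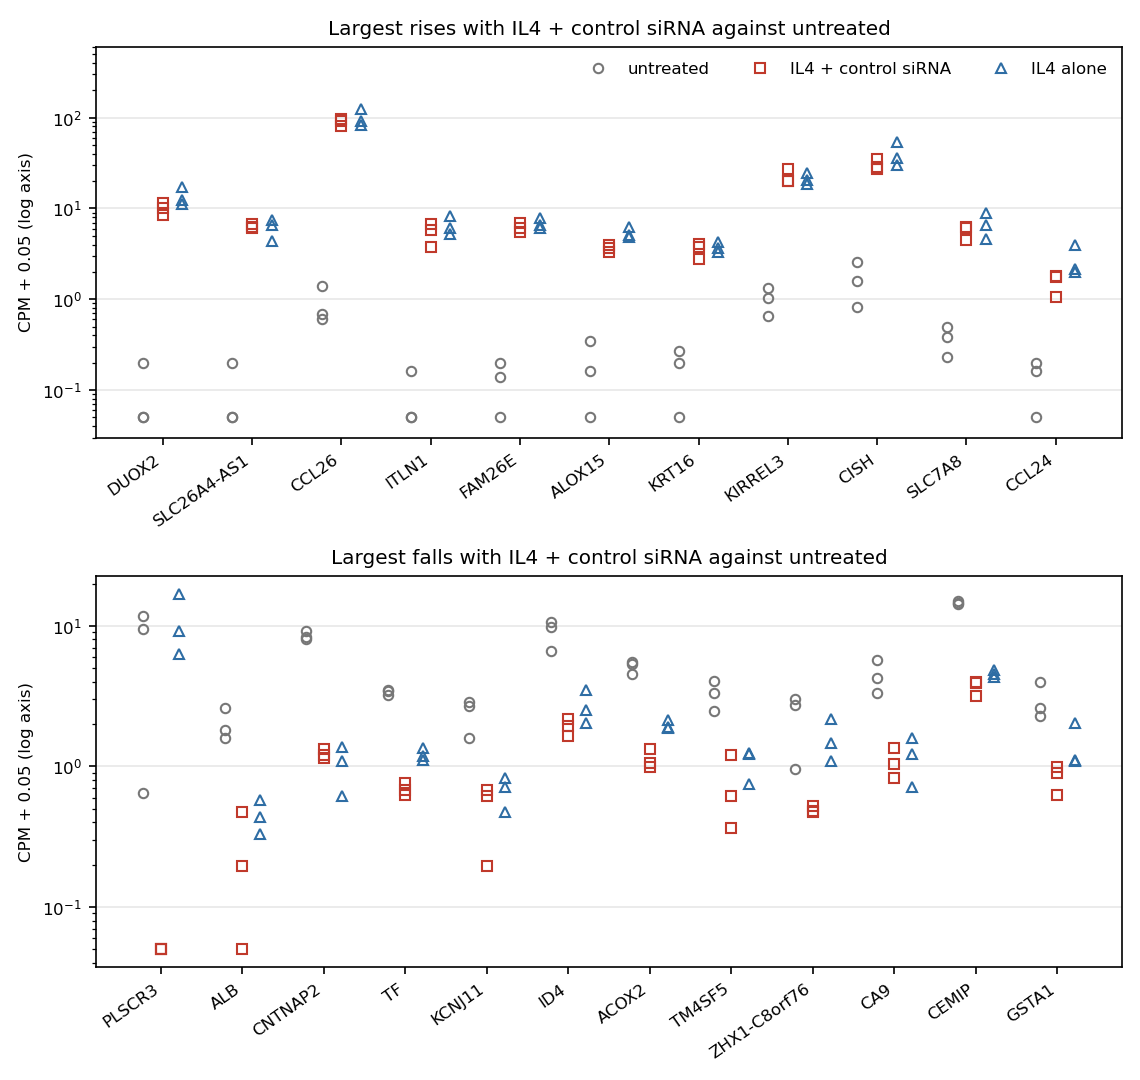
CPM + 0.05 per library on a log axis for the largest rises (top) and falls (bottom) of IL4 with control siRNA (red squares) against untreated (grey circles), with the 3 IL4-alone libraries beside them (blue triangles). CCL26 sits at 81.0 to 96.0 CPM in the siRNA group and at 84.0 to 124 CPM with IL4 alone. PLSCR3 is at 0 in the siRNA group only, and its reads are shared with TMEM256-PLSCR3.

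The receptor chains and STAT6 changed little or not detectably, and of the Janus kinases JAK1 and JAK2 rose. IL4R was at 20.03, 16.7 and 15.5 CPM untreated and at 21.7, 17.5 and 23.2 CPM with IL4 and control siRNA, and the groups overlapped (log2 change 0.24, SE 0.12, adjusted p = 0.144). It passed without untreated replicate 1 (0.36, adjusted p = 0.0381) or control siRNA replicate 2 (0.35, adjusted p = 0.0447). STAT6 was at 99.0, 94.7 and 90.1 CPM against 88.9, 96.1 and 100 CPM, also overlapping (log2 change 0.01, SE 0.06, adjusted p = 0.954). IL13RA1 passed, 0.17 higher on the log2 scale (SE 0.06), but not without untreated replicate 1 (0.10, adjusted p = 0.16) or without control siRNA replicate 2 (0.15) or 3 (0.16), nor in the 6 compared libraries alone (adjusted p = 0.0523) or with all 15 libraries (0.0845). IL2RG and IL13RA2 had too few counts to test. JAK1 rose from 198, 229 and 231 CPM to 305, 301 and 305 CPM (log2 change 0.48, SE 0.06) and JAK2 from 14.96, 16.4 and 18.5 CPM to 23.1, 21.7 and 26.6 CPM (log2 change 0.54, SE 0.11). TYK2 (0.12) and JAK3 (-0.66) did not pass. Among all 17 receptor, JAK and STAT genes tested, 7 rose and 1 fell, beside 12.9% and 13.5% of all genes, with a median log2 change of 0.17. STAT3 (0.39) and STAT5B (0.51) were among the rises, the former named after its value was seen, and STAT5B had counts that were not whole in 14 libraries. The fall was in IRS2, an adaptor that links the receptor to growth signalling, from 261, 245 and 238 CPM to 134, 138 and 133 CPM (log2 change -0.87, SE 0.06). The number of falls was 3 without untreated replicate 1 and 2 without control siRNA replicate 1 or 3.

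Over all genes tested 12.9% rose and 13.5% fell. Among 11 genes of the CIS, SOCS and PIAS inhibitors, 3 rose. Beside CISH these were SOCS2, from 5.80, 6.39 and 8.81 CPM to 12.6, 14.2 and 10.7 CPM (log2 change 0.87, SE 0.17), and SOCS3, from 6.16, 5.17 and 4.93 CPM to 8.39, 7.33 and 9.11 CPM (log2 change 0.60, SE 0.18, adjusted p = 0.0115). SOCS3 no longer passed without control siRNA replicate 3 (adjusted p = 0.0599). SOCS7 was the 1 fall (-0.19), lost in DESeq2 (adjusted p = 0.0723), in the 6 compared libraries alone (0.0559) and with all 15 libraries (0.0544), and the number of falls was 0 without untreated replicate 2 or control siRNA replicate 1 or 2, and 2 without untreated replicate 1 or control siRNA replicate 3. SOCS1, the inhibitor most closely tied to STAT6, was too low to test, with 3 counts against 12, a ratio of 5.27 (1.42 to 29.1).

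Set directly against IL4 alone, no gene in the libraries with IL4 and control siRNA passed the test. Of 12795 genes, 0 (0%) had an adjusted p below 0.05 in edgeR's test, and the smallest adjusted p was 0.891. At an unadjusted p below 0.05 there were 628 genes (4.91%), and DESeq2 called 1, PLSCR3. That unadjusted count was 1626 (12.6%) without IL4 replicate 3, 396 (3.06%) without control siRNA replicate 3 and 326 (2.62%) in the 6 compared libraries alone, each with 0 calls. The median absolute log2 difference was 0.0912 and 95% of genes lay within 0.419. A p that misses the threshold does not show that the groups are alike. Of the 356 genes that changed at least 2-fold against untreated, 46 had an unadjusted p below 0.05 in the direct test. These genes were chosen by the same control siRNA libraries that the direct test uses. The selection itself can raise that count, so no conclusion is drawn from it beside the 4.91% of all genes. The 3 with the smallest p in each direction serve as examples that did not pass. AKR1B1 was 0.23 higher with the siRNA on the log2 scale, ABCG1, a lipid exporter, 0.56 higher and CTGLF12P, a pseudogene with counts that were not whole in 14 libraries, 2.78 higher. DHRS2 was 1.19 lower, FAM224A 0.99 lower and ZNF324B 0.75 lower, the last pair with counts that were not whole in 9 and 14 libraries. Both treated groups were compared with the same untreated libraries, so their changes against untreated are not independent readings of each other.

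**Figure D3:**
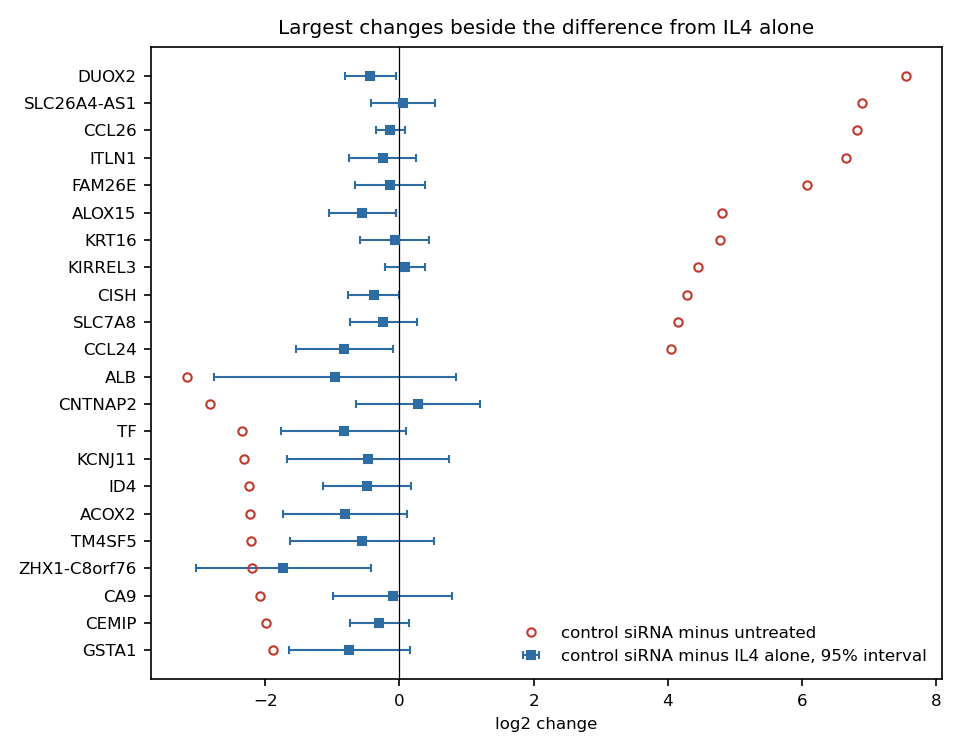
Log2 change against untreated (open red circles) and log2 difference from IL4 alone with its 95% interval (blue squares) for the largest rises and falls, without PLSCR3. For the rises shown the differences from IL4 alone lie between -0.82 (CCL24) and 0.08 (KIRREL3), beside changes against untreated of 4.04 to 7.54.

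Genes that read foreign RNA were examined because a siRNA was present. Of 9 sensor genes tested, 4 rose and none fell, beside 12.9% and 13.5% of all genes, with a median log2 change of 0.18. IFIH1 (MDA5, a sensor of long double-stranded RNA) went from 1.90, 1.43 and 1.94 CPM to 3.76, 3.12 and 4.13 CPM (log2 change 1.07, SE 0.29, adjusted p = 0.0055), with IL4 alone between them at 2.95, 2.77 and 2.33 CPM. DDX58 (RIG-I) rose by 0.47, and not without control siRNA replicate 1 (adjusted p = 0.0614). EIF2AK2 (PKR) rose by 0.19, and not without untreated replicate 1 or 3 or control siRNA replicate 3 (adjusted p up to 0.16), nor with all 15 libraries (0.0549). MAVS, the adaptor shared by IFIH1 and DDX58, rose by 0.18. With IL4 alone DDX58 was at 15.6, 16.1 and 18.5 CPM, beside 18.4, 14.8 and 17.4 CPM with the siRNA. MAVS was at 259, 263.5 and 222 CPM, beside 258, 256 and 242 CPM with the siRNA. EIF2AK2 was at 90.6, 96.3 and 93.8 CPM, below its 103, 101 and 113 CPM with the siRNA. A single sensor fell when untreated replicate 1 or control siRNA replicate 3 was left out. Against IL4 alone, 1 of 10 sensor genes had an unadjusted p below 0.05 and none passed adjustment. Of 13 genes of the RNA interference machinery, TNRC6B (-0.26) and DICER1 (0.17) changed, 1 in each direction. Neither call held in DESeq2, in the 6 compared libraries alone or with all 15 libraries (adjusted p 0.0787 to 0.0981 for TNRC6B and 0.0604 to 0.138 for DICER1). TNRC6B was lost without untreated replicate 1 or 2, control siRNA replicate 2 or 3, or ALOX15 siRNA replicate 1 (adjusted p up to 0.228). DICER1 was lost without untreated replicate 1 or 3, control siRNA replicate 2 or 3, or Compound A replicate 3 (adjusted p up to 0.204).

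Interferon-responsive genes rose in part, most of them by less than 2-fold. Of 25 type I interferon response genes tested, 14 rose and 1 fell, beside 12.9% and 13.5% of all genes. The median log2 change was 0.39, and the falls numbered 2 without control siRNA replicate 2. TRIM22, an antiviral ubiquitin ligase, went from 2.45, 1.54 and 3.14 CPM to 4.05, 4.99 and 6.12 CPM (log2 change 1.12, SE 0.26). IFIT3 rose by 0.99 (SE 0.25) and SAMD9L by 0.83 (SE 0.19). The fall was in OAS1 (-0.38), and 10 genes did not pass, on either side of 0, with IFIT1 at -0.74. MX1, an antiviral GTPase, stood at 0.363, 0.44 and 0 CPM and then at 0.723, 1.40 and 1.99 CPM (log2 change 2.16, SE 0.61), a call lost without control siRNA replicate 3 (adjusted p = 0.0656). IL4 alone, against the same untreated libraries, gave 1.27 for TRIM22, 0.72 for IFIT3, 0.54 for SAMD9L and 1.96 for MX1. Against IL4 alone, 3 of 26 genes of the list had an unadjusted p below 0.05 and 0 passed.

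Genes of antigen presentation rose too. Of 22 genes of MHC class I, the immunoproteasome and the interferon-gamma response, 14 rose and none fell, beside 12.9% and 13.5% of all genes. The median log2 change was 0.53. IRF1, a transcription factor induced by interferons, went from 10.4, 9.47 and 10.3 CPM to 25.7, 27.8 and 23.9 CPM (log2 change 1.36, SE 0.11). GBP3, a guanylate-binding protein, went from 5.08, 5.17 and 4.63 CPM to 12.3, 15.4 and 12.8 CPM (log2 change 1.44, SE 0.16). The groups were separate for both. UBD, a ubiquitin-like modifier, was at 0, 0.22 and 0.448 CPM and rose to 1.45, 3.75 and 1.71 CPM (log2 change 3.49, SE 0.60), and it shares exon sequence with GABBR1 on its own strand. PSMB8, an immunoproteasome subunit named after its value was seen, rose by 0.91 (SE 0.13). ERAP2, a peptide-trimming enzyme, rose by 1.24 (SE 0.34) but not without control siRNA replicate 2 (adjusted p = 0.0643).

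Inflammatory genes rose in part, and IL11 rose most among those described here. IL11, a cytokine of the IL-6 family linked to fibrosis, went from 4.44, 5.95 and 5.83 CPM to 48.6, 54.5 and 44.0 CPM, a 9.22-fold rise (log2 change 3.20, SE 0.12, adjusted p = 7.31e-21) with all treated libraries above all untreated ones. Of 22 NF-kB and cytokine genes tested, 9 rose and 2 fell (median 0.18), beside 12.9% and 13.5% of all genes. NFKBIE rose by 1.28, NFKB2 by 1.18 and the monocyte chemokine CCL2 by 1.16. The falls were in the chemokines CXCL8 (-0.48) and CXCL1 (-0.39). They numbered 1 without untreated replicate 2 or 3, control siRNA replicate 1 or 2, Compound A replicate 2 or ALOX15 siRNA replicate 1. Among 18 complement genes 7 rose and 2 fell (median 0.24). C3, the central complement component, went from 71.5, 75.2 and 73.9 CPM to 354.5, 365 and 325.5 CPM, a 4.75-fold rise (log2 change 2.25, SE 0.06, adjusted p = 1.86e-26). IL4 alone left C3 at 397, 339 and 334 CPM, a difference of -0.02 (95% interval -0.15 to 0.11). CFI, the protease that inactivates C3b, went from 4.99, 6.17 and 6.42 CPM to 26.2, 27.6 and 28.7 CPM (log2 change 2.26, SE 0.14). CD59, which blocks the membrane attack complex, rose by 1.46 and CFB, of the alternative pathway, by 1.15.

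Of 37 collagen, matrix and mesenchymal genes tested, 26 rose and 3 fell, beside 12.9% and 13.5% of all genes. The median log2 change was 0.71. FBN1, the microfibril protein fibrillin-1, went from 18.2, 16.5 and 16.0 CPM to 89.9, 89.4 and 93.8 CPM (log2 change 2.42, SE 0.08). COL5A1, a fibrillar collagen chain, went from 13.3, 14.9 and 15.7 CPM to 63.9, 85.8 and 69.3 CPM (log2 change 2.33, SE 0.11). Neither gene overlapped between groups. ITGB6, the integrin subunit that helps activate TGF-beta, rose by 2.33 (SE 0.34) and TAGLN, an actin-binding protein of contractile cells, by 2.30 (SE 0.30).

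KRT16 and KRT6A, keratins of stressed epithelium, rose from near 0 and could be tested only through groups where they were higher. KRT16 went from 3 counts to 71 (ratio 31.2, 10.2 to 155) and KRT6A, its partner in wounded epithelium, from 0.544, 0.44 and 0 CPM to 3.61, 3.75 and 3.41 CPM (log2 change 3.23, SE 0.40). Of 18 keratins 10 could be tested, and 6 rose while 2 fell (median 0.70), beside 12.9% and 13.5% of all genes. The filter favours rises in this count. KRT8 and KRT18, the pair of simple epithelia, were among the 5 largest rises in CPM. KRT8 went from 3208, 2732 and 2622 CPM to 4609, 4702 and 4220 CPM (log2 change 0.66, SE 0.06), and KRT18 from 2502, 2261 and 2351 CPM to 4069, 4015 and 3798 CPM (log2 change 0.74, SE 0.04). KRT80 rose by 1.19 and KRT4 by 0.83. KRT81, whose counts were not whole in all 15 libraries, fell by 0.26 on the log2 scale.

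Of 27 junction genes tested, 5 rose, 5 fell and 17 did not pass, with a median of -0.05, beside 12.9% and 13.5% of all genes. CDH3, P-cadherin, went from 3 counts to 30 (ratio 13.2, 4.1 to 67.4) and DSP, the desmosomal plaque protein, from 342, 363 and 342 CPM to 549.4, 542 and 560.4 CPM (log2 change 0.66, SE 0.05). TJP3, a tight junction scaffold, fell from 13.2, 8.59 and 9.86 CPM to 4.19, 2.50 and 4.41 CPM (log2 change -1.51, SE 0.23), and CDH17, the cadherin of gut epithelium, from 152, 165 and 176 CPM to 89.3, 86.9 and 95.8 CPM (log2 change -0.85, SE 0.06). None of these overlapped between groups. Of 13 mucin and goblet cell genes tested, none rose and 3 fell. CREB3L1, a membrane-bound transcription factor of secretory cells, fell by 1.35 on the log2 scale (SE 0.24) and FCGBP, a mucus protein, by 0.34. MUC5AC, the main inducible airway mucin, went from 475, 481 and 406 CPM to 322.5, 338 and 319.6 CPM (log2 change -0.47, SE 0.12, adjusted p = 0.0142). The MUC5AC call was lost without untreated replicate 1 or control siRNA replicate 3, and when all 15 libraries were fitted (adjusted p = 0.0581), where FCGBP was lost too (0.0546) and 1 fall was left. IL4 replicate 1 stood at 486 CPM of MUC5AC, just above the untreated libraries, and the other IL4-alone libraries at 309 and 300 CPM.

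Genes of cell division fell, beside 13.5% of all genes tested. All 42 mitosis and spindle genes fell, with a median log2 change of -0.69, and 36 of 40 DNA replication and S phase genes fell, with none rising and a median of -0.58. CDK1, the kinase that starts mitosis, went from 68.9, 57.5 and 60.5 CPM to 31.4, 28.6 and 33.9 CPM (log2 change -0.99, SE 0.09, adjusted p = 8.12e-11). AURKB, a kinase of the chromosomal passenger complex, fell by 0.95, NDC80, of the kinetochore, by 0.93 and CCNA2, cyclin A2, by 0.92. In the S phase list PRIM1, the primase subunit, fell by 0.96, CDC45, of the replicative helicase, by 0.96, RFC3, of the clamp loader, by 0.93 and MCM10 by 0.92. MKI67, named after its value was seen, went from 224.5, 229.8 and 228.5 CPM to 140.5, 149.5 and 138.3 CPM (log2 change -0.67, SE 0.06). No fall in these lists reached 2-fold, and leaving out any one library of the fit left 41 or 42 mitosis genes and 31 to 37 replication genes lower. Against IL4 alone 1 of 42 mitosis genes and 5 of 40 replication genes had an unadjusted p below 0.05, with median differences of -0.07 and -0.14.

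**Figure D4:**
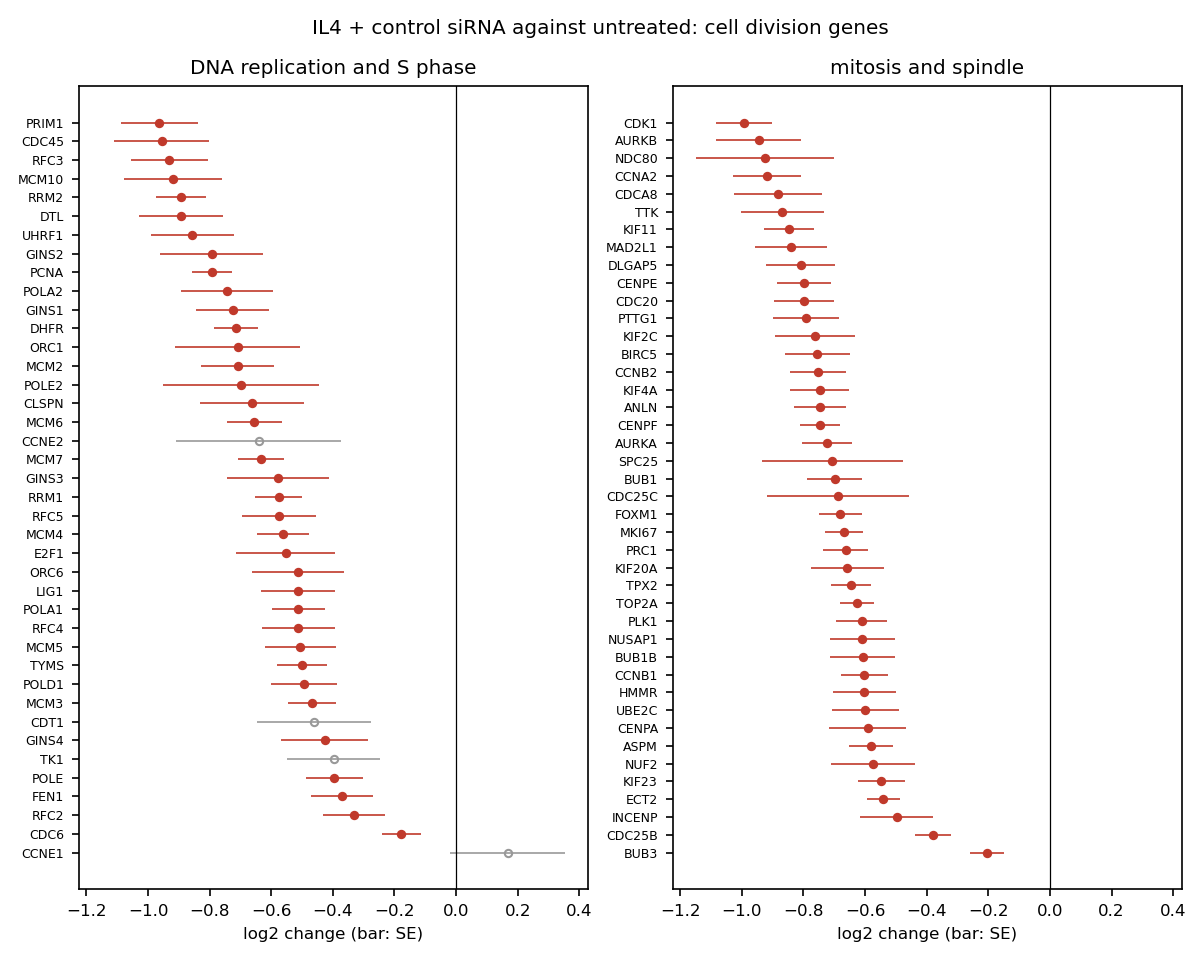
Log2 change of IL4 with control siRNA against untreated, with bars of 1 SE, for 40 DNA replication genes (left) and 42 mitosis genes (right). Filled red points passed an adjusted p of 0.05 and open grey points did not: 36 and 42 lie to the left of 0 as filled points, and CCNE1 alone lies to the right, open, at 0.17.

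CDKN1A, the cell cycle inhibitor p21, went the other way, from 329, 310 and 293 CPM to 469, 456 and 423 CPM (log2 change 0.53, SE 0.05). Other p53 targets did not move as a group: of 33 tested, 3 rose and 2 fell, beside 12.9% and 13.5% of all genes. The median was 0.01. GADD45A rose by 0.35 and PHLDA3 by 0.32, with overlapping libraries in PHLDA3, while GDF15, a stress-induced cytokine, fell by 0.46. The count of rises was 5 without control siRNA replicate 2, Compound A replicate 2 or ALOX15 siRNA replicate 1. The falls ranged from 1 without untreated replicate 2 to 4 without untreated replicate 1 or control siRNA replicate 3.

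The lipid mediators and oxidases around ALOX15 changed in both directions. PTGS2 (cyclooxygenase-2) went from 720, 805 and 828 CPM to 400, 353 and 420 CPM, with no overlap (log2 change -0.999, SE 0.06, adjusted p = 8.03e-15). PLA2G4A, the phospholipase that frees arachidonate, went from 235, 236 and 244 CPM to 126, 118 and 129 CPM (log2 change -0.94, SE 0.06, adjusted p = 9e-15). IL4 alone gave 318, 368 and 397 CPM for PTGS2 and 111, 123 and 111 CPM for PLA2G4A, and the differences between the treated groups were 0.13 (95% interval -0.05 to 0.30) and 0.12 (-0.02 to 0.27). Of 17 eicosanoid genes tested 3 rose and 6 fell, beside 12.9% and 13.5% of all genes, with a median of -0.15. PLA2G4C, a related phospholipase, rose by 1.53 (SE 0.34). ALOX5, 5-lipoxygenase, stood at 0.544, 1.10 and 0.747 CPM and then at 1.88, 1.40 and 1.56 CPM (log2 change 1.03, SE 0.39, adjusted p = 0.0494), a call lost on leaving out any library of the fit other than untreated replicate 2 (adjusted p up to 0.211). It was also lost with no filter (0.0843), the stricter filter (0.0554), DESeq2 (0.142), a replicate block (0.056) and GC correction (0.0672). Of 13 oxidase genes 5 could be tested, and DUOX2, with 1 untreated count, only through groups where it was higher, which favours rises. Of the 5 tested, 4 rose and none fell, beside 12.9% and 13.5% of all genes. Beside DUOX2 they included NOX1, the catalytic oxidase of colon epithelium, from 7.07, 10.8 and 9.11 CPM to 16.05, 18.4 and 17.1 CPM (log2 change 0.95, SE 0.14), and CYBA, the membrane subunit that pairs with it (0.26). CYBA overlapped between groups and was lost without untreated replicate 2 or control siRNA replicate 2, and at an adjusted p of 0.0934 with all 15 libraries.

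Among abundant enzymes, AKR1B1 (aldose reductase) had the largest rise in CPM, from 1242, 1191 and 1093 CPM to 3009, 2777 and 2841 CPM (log2 change 1.29, SE 0.05). IL4 alone left it at 2538, 2549.8 and 2346 CPM, below each library of the siRNA group (difference 0.23, 95% interval 0.12 to 0.33, unadjusted p = 0.00016). CTSL, a lysosomal protease, went from 573, 582 and 568 CPM to 2068, 2114 and 2000 CPM (log2 change 1.85, SE 0.04), and HSPA5, the chaperone BiP, from 3901, 4726 and 4907 CPM to 6145, 6072 and 5980 CPM (log2 change 0.43, SE 0.08). The largest falls in CPM were in AKR1B10 (-0.17), NQO1 (-0.39), ALDH3A1 (-0.38), KRT81 and SLC12A2 (-0.64), where AKR1B10 had counts that were not whole in all 15 libraries. NQO1, a quinone reductase, held at 2758, 2758 and 2733 CPM untreated and at 2095, 2090 and 2076 CPM with IL4 and control siRNA. SLC12A2, the sodium-potassium-chloride cotransporter, went from 1147, 1173.5 and 1190.5 CPM to 751, 699 and 801 CPM. Of 36 NRF2 targets, 12 fell and 4 rose (median -0.08), beside 13.5% and 12.9% of all genes. GPX2, a glutathione peroxidase, fell by 0.77 and GCLC, of glutathione synthesis, by 0.43, while HMOX1, heme oxygenase-1, rose by 0.43.

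Of 29 cholesterol genes, 4 rose and 5 fell (median -0.06), shares near the 12.9% and 13.5% of all genes tested. STARD4, a sterol carrier, went from 88.3, 91.2 and 90.7 CPM to 136, 129 and 171 CPM (log2 change 0.70, SE 0.09). MVK fell by 0.68, a call lost without untreated replicate 1 (adjusted p = 0.0823). Of the 25 genes of fatty acid synthesis and desaturation, 6 rose while 4 fell (median 0.06), with FADS3 (0.86), ELOVL7 (0.48) and SCD (0.45) higher and ELOVL2 (-0.97) lower, and the falls numbered 2 without untreated replicate 2 or control siRNA replicate 1 or 2. Of 38 unfolded protein and integrated stress genes, 17 rose and 2 fell (median 0.15), including CRELD2 (0.62), ATF3 (0.62) and HERPUD1 (0.48). The rises numbered 10 when all 15 libraries were fitted, and the falls 1 without control siRNA replicate 2 or 3, Compound A replicate 2 or ALOX15 siRNA replicate 1. Of 37 hypoxia and glycolysis genes, 10 rose and 5 fell (median -0.01), the falls near the 13.5% of all genes. PFKFB4 (1.79), EGLN3 (1.33) and HK1 (1.09) rose, and CA9, a carbonic anhydrase raised by hypoxia, fell from 5.62, 3.30 and 4.18 CPM to 1.30, 0.78 and 0.996 CPM (log2 change -2.08, SE 0.33).

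The deepest falls were in genes at low levels. ALB, albumin, went from 1.54, 1.76 and 2.54 CPM to 0.145, 0 and 0.427 CPM (log2 change -3.16, SE 0.62). CNTNAP2, a neurexin-family adhesion molecule, went from 8.25, 8.04 and 9.11 CPM to 1.16, 1.09 and 1.28 CPM (log2 change -2.82, SE 0.29). TF, transferrin, went from 3.17, 3.41 and 3.44 CPM to 0.578, 0.624 and 0.711 CPM (log2 change -2.35, SE 0.35). It shares exon sequence with SRPRB on its own strand. In ALB, CNTNAP2 and TF the highest treated library was well below the lowest untreated one. ID4, an inhibitor of helix-loop-helix factors, fell from 10.5, 6.61 and 9.71 CPM to 1.59, 1.87 and 2.13 CPM (log2 change -2.25, SE 0.25), and CEMIP, which breaks down hyaluronan, from 14.4, 14.9 and 14.2 CPM to 3.90, 3.12 and 3.84 CPM (log2 change -1.99, SE 0.17). ACOX2, of peroxisomal bile acid synthesis, fell by 2.22, KCNJ11, a potassium channel, by 2.32, TM4SF5 by 2.21 and GSTA1, a glutathione transferase with counts that were not whole in 8 libraries, by 1.88. ZHX1-C8orf76, a read-through transcript that shares its exons with its component genes, fell by 2.20 and is uncertain.

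PLSCR3 (phospholipid scramblase 3) had the largest fitted fall, which is uncertain because the gene shares reads with a neighbour. It was at 11.8, 9.47 and 0.598 CPM untreated, at 0 in all 3 libraries with IL4 and control siRNA, and at 16.7, 9.11 and 6.21 CPM with IL4 alone. PLSCR3 shares exons with the read-through gene TMEM256-PLSCR3, which held 66, 70 and 89.36 estimated counts in the siRNA libraries where PLSCR3 held 0. The sum of both was 11.8, 9.47 and 7.50 CPM untreated, 9.54, 10.9 and 12.7 CPM with IL4 and control siRNA and 16.7, 12 and 11.6 CPM with IL4 alone. The summed levels overlapped between untreated and siRNA libraries. The call itself (adjusted p = 0.0334) was lost on leaving out untreated replicate 1 or 2, any control siRNA library, any Compound A library or ALOX15 siRNA replicate 1 or 2 (adjusted p up to 0.0824), and under a replicate block (0.0921).

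**Figure D5:**
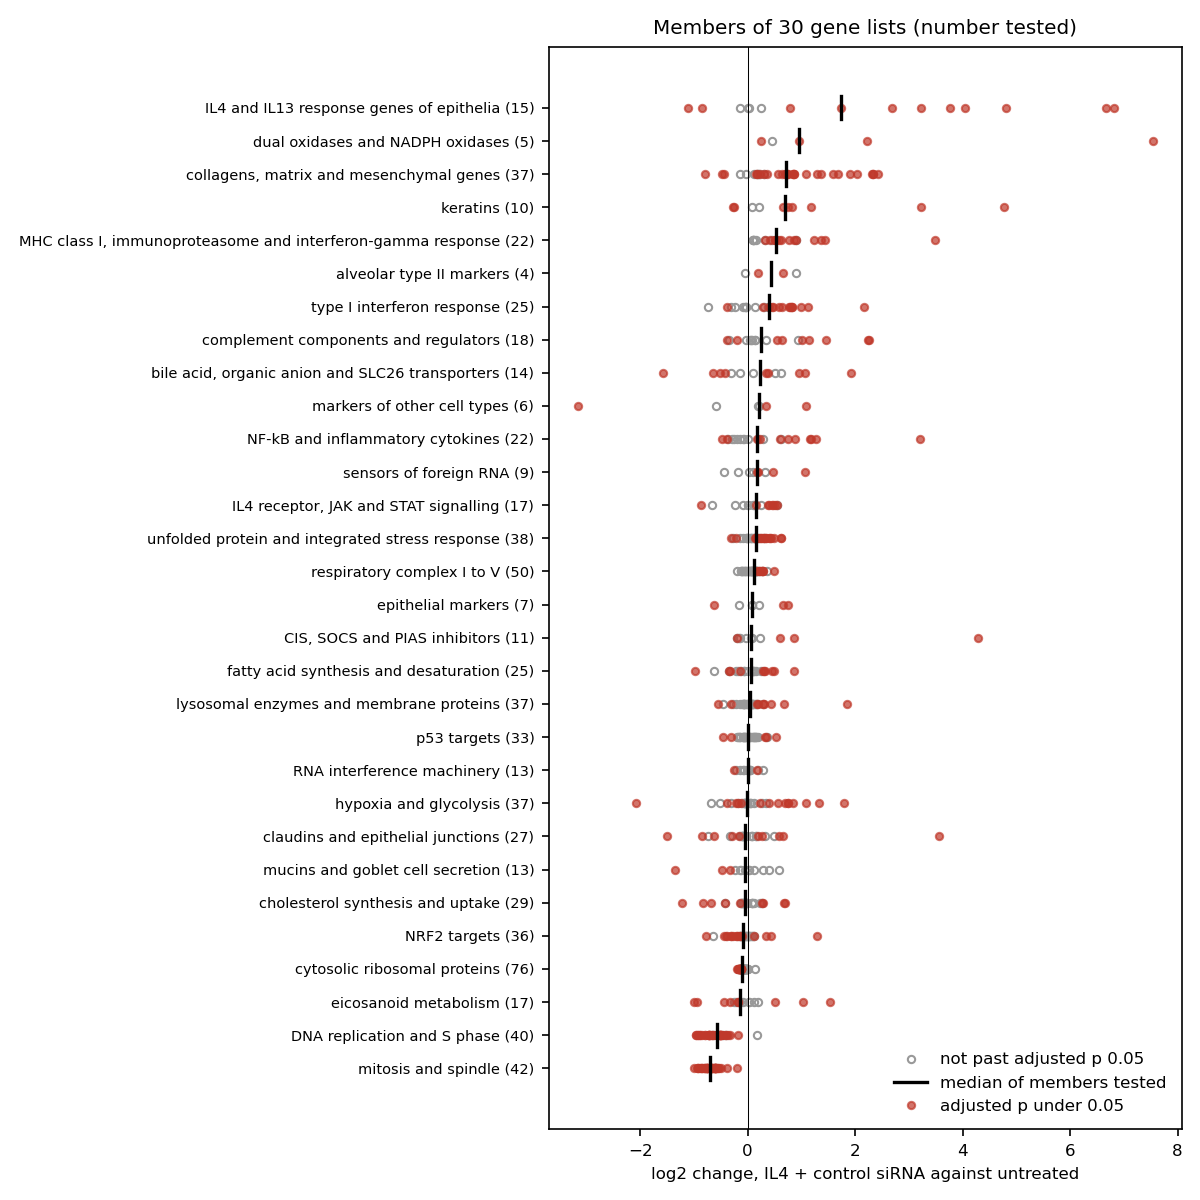
Log2 change of each tested member (points) of 30 gene lists for IL4 with control siRNA against untreated, with the median of the members tested as a black bar and the number tested in parentheses. Red points passed an adjusted p of 0.05. The IL4 and IL13 response list has the highest median (1.73) and the mitosis list the lowest (-0.69). Genes near 0 in untreated cells could be tested only through groups where they were higher, which favours rises in such lists.

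The libraries were checked against cell type markers. Keratins of simple epithelia, CDH1 and EPCAM were present in all libraries, and the 8 epithelial markers together summed to 6350 to 7250 CPM untreated and 9410 to 10300 CPM with IL4 and control siRNA, a sum made up mainly of KRT8, KRT18 and KRT7. GRHL2 was at 0 in both groups. Of 14 alveolar type II markers, 4 could be tested. SFTPA1, SFTPB, SLC34A2 and HOPX were at 0 in every untreated and treated library and SFTPA2, SFTPC, NKX2-1 and PGC at 0 to 0.299 CPM. The surfactant protein genes SFTPA1, SFTPA2, SFTPB and SFTPC were thus at or near 0. Other members were expressed: ETV5 at 113 to 126 CPM, LPCAT1 at 60.65 to 79.6, ABCA3 at 35.85 to 63.2 and LAMP3 at 1.36 to 4.41. Together the 14 markers summed to 224 to 228 CPM untreated and 247 to 260 CPM with IL4 and control siRNA. ABCA3 rose by 0.66 and LPCAT1 by 0.19, the latter not without untreated replicate 3 or control siRNA replicate 1 or 2 (adjusted p up to 0.175), nor in DESeq2 (0.0554), with all 15 libraries (0.0808) or with GC correction (0.087), and the list held 1 rise without control siRNA replicate 1 or 2. Of 19 markers of blood, vessel, connective tissue, liver and nerve cells, PTPRC, CD3E, AIF1, CDH5 and KDR were at 0 throughout. Together the 19 summed to 58.3 to 69.4 CPM untreated and 73.4 to 89.1 CPM with IL4 and control siRNA. COL1A1 (1.09) and TUBB3 (0.34) rose and ALB fell, and the part of such cells in any result was not tested. TUBB3 had counts that were not whole in all 15 libraries, its groups overlapped and its call was lost when all 15 libraries were fitted (adjusted p = 0.0517).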

How the data were processed

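RNA-seq of 15 libraries was used. The deposited table gives expected counts per gene that the authors made with Bowtie2 2.1.0 and RSEM 1.2.15 on hg38, per the submitters' processing notes. The annotation, the filters on reads and whether counting used strand are not given in the sources used here. In each library 3.63% to 4.19% of values were fractional (by over 0.005), which happens when RSEM divides reads among genes, and a named gene is marked where this held in at least 4 libraries.

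Counts were rounded and kept by filterByExpr, which left 12676 of 26475 genes and at least 99.86% of each library's counts. A gene near 0 in untreated cells was kept only through groups where it was higher, so list counts and medians can favour rises. Libraries were scaled by TMM and fitted with edgeR 4.0.16 (robust quasi-likelihood, R 4.3.3), 1 coefficient per group, on 12 libraries. These were the untreated, control siRNA, Compound A and ALOX15 siRNA groups, and the latter groups lent their spread. The direct test against IL4 alone, and the IL4-alone changes given beside it, came from a fit of all 15. The common biological coefficient of variation was 0.0522. Benjamini-Hochberg adjustment ran over every gene tested. SEs and intervals come from the t quantile that matches each p. The fit was tested on simulated data.

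Alternatives were unrounded counts, scaling by RLE or by upper quartile, either no filter or a strict one (at least 1 CPM in 3 libraries), a replicate block, DESeq2 1.42.0, the 6 compared libraries only, all 15 libraries, a GC content correction (loess span 0.3, a GC value for 95.2% of tested genes) and leaving out each library. Leaving out Compound A or ALOX15 siRNA libraries was added after seeing the data.

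The comparison, gene lists and rule for naming genes were chosen with earlier results of these data known. The rule took 17 fixed genes, the 12 largest log2 rises and 12 largest falls that passed without overlap between groups and reached a group mean of 1 CPM, the 5 largest rises and falls in CPM, up to 4 called members of each of 30 lists by absolute log2 change, and 3 examples each way of the direct test. Genes outside it are CST1, ANO1, TGM2, RUNX2, GATA3, SPDEF, FOXA3, STAT3, MKI67, PSMB8, CCNE1, IL13RA2, JAK3, TYK2, OAS1, IFIT1, CXCL1 and CXCL8, chosen after their values were seen, and marker genes. For OAS1, IFIT1, CXCL1 and CXCL8, shared exons and fractional counts are not given here. Coordinates are from GENCODE v29 on GRCh38, matched by symbol. Some genes that the rule takes are not reported here.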

Additional observations from a re-analysis of the deposited data

How the results depend on the processing

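The counts of rises and falls, and of those at least 2-fold, stayed within 1.5 times the reported ones under all 22 alternatives. Rises ranged from 1271 (all 15 libraries) to 1778 (no filter), and falls from 1198 (all 15 libraries) to 2082 (GC correction). With a library left out, rises ranged from 1361 to 1714 and falls from 1327 to 1786. Against IL4 alone the edgeR count was 0 under each alternative run for that test, which had no GC correction and left out only libraries of the compared groups, and DESeq2 gave 1, PLSCR3 (log2 -8.60, adjusted p = 1.72e-05). Genes at an unadjusted p below 0.05 there ranged from 326 (6 compared libraries) to 1626 (12.6%, without IL4 replicate 3). Of 141 named genes followed, 137 passed and 116 of these passed in every setting that gave them an adjusted p. CCL24, CDH3 and ZHX1-C8orf76, among the 116, had a value in 21 of the 22 settings. STAT6 turned negative with GC correction (-0.0745), and ran from -0.0361 (without control siRNA replicate 3) over -0.0223 (without untreated replicate 3) to 0.0518 with a library left out. The direct difference of CCL26 ran from -0.231 to 0.030 (without IL4 replicate 1) and that of C3 from -0.0639 to 0.0476 (without IL4 replicate 1), also positive without control siRNA replicate 3 (0.0169). The cause was not tested. Same-numbered libraries had correlations of deviations of 0.112, -0.0132 and 0.124, so the numbers were not taken as pairs. A replicate block called 1696 genes higher and 1790 lower. Depth limits low genes: a count of 0 in 1 library allows up to 3 counts.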

Other observations

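Of 50 genes of respiratory complexes I to V, 9 rose, none fell and 41 did not pass, with a median log2 change of 0.11, beside 12.9% of all genes tested that rose. UQCRC1, a core subunit of complex III, went from 97.9, 81.6 and 79.6 CPM to 120, 131 and 113 CPM (log2 change 0.49, SE 0.07), and COX7B rose by 0.29, ATP5B by 0.27 and NDUFV1 by 0.28, the last with overlapping groups and lost without untreated replicate 3 (adjusted p = 0.0512) or control siRNA replicate 1. The number of rises was 14 without untreated replicate 1 or ALOX15 siRNA replicate 1. Of 76 cytosolic ribosomal protein genes, 18 fell and none rose, beside 13.5% of all genes that fell, with a median of -0.10 and no member beyond -0.20. RPL10A (-0.18) and RPL7 (-0.18) passed in all settings tried, RPL34 (-0.20) was lost without control siRNA replicate 3 and RPL29 (-0.17) without untreated replicate 1 or control siRNA replicate 3, and both in the 6 compared libraries alone and with all 15 libraries, at adjusted p values of up to 0.0927. RPL34 was also lost in DESeq2 (0.0534) and with GC correction (0.0544). The count of falls rests on single libraries: it was 8 without control siRNA replicate 1, 3 without control siRNA replicate 3, 7 without Compound A replicate 2 and 8 without ALOX15 siRNA replicate 1. One member rose without untreated replicate 1 or control siRNA replicate 3. The falls numbered 2 in the 6 compared libraries alone, 4 with all 15, 11 with DESeq2 and 33 with GC correction.

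Transporters held larger changes. SLC26A2, a sulfate transporter, went from 85.5, 87.9 and 81.0 CPM to 311, 306 and 342 CPM (log2 change 1.92, SE 0.05), with IL4 alone at 249, 345 and 348 CPM. SLC51B, a subunit of the basolateral bile acid exporter, fell from 11.6, 10.2 and 10.8 CPM to 3.04, 3.59 and 4.27 CPM (log2 change -1.57, SE 0.19). SLC26A6, an anion exchanger, rose by 1.07 and SLCO1B1, an organic anion importer of liver, by 0.96. Of 14 bile acid, organic anion and SLC26 transporters tested, 5 rose and 4 fell, beside 12.9% and 13.5% of all genes. The rises numbered 3 when all 15 libraries were fitted. Among 37 lysosomal genes 7 rose and 2 fell (median 0.04). Beside CTSL, SMPD1, acid sphingomyelinase, rose by 0.68 and CTSS by 0.44, and GLA, alpha-galactosidase A, fell by 0.55, while GC correction gave 5 falls. Of the 7 epithelial markers tested 2 rose and 1, EPCAM, fell (-0.63), and 4 rose without untreated replicate 1.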
